A study of Homo sapiens with 4 samples.

Results

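Cytochrome P450 enzymes and UDP-glucuronosyltransferases (UGTs) were examined in the mRNA of A549 cells, an established line from a human lung adenocarcinoma, with and without overexpression of USP12, a ubiquitin-specific protease. The genes were taken by symbol: every P450 gene named by family, subfamily and number except CYP51A1, and every UGT1A, UGT2A and UGT2B gene. They came to 74 of the 50868 genes counted, 55 of them P450s and 19 of them UGTs. The study had 2 control libraries, from A549 cells carrying an empty lentiviral vector, and 2 libraries from A549 cells transduced with the vector that overexpresses USP12, all without further treatment in the labels. Nothing in the sources used here says that the libraries of a group came from separate cultures, so p-values measure only the spread between these libraries, which may be technical. Every statement is about mRNA, not enzyme activity.

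P450s are haem enzymes that insert oxygen into lipophilic molecules, with electrons passed on by a reductase. The families CYP1, CYP2 and CYP3 are best known for drugs and pollutants, CYP4 enzymes hydroxylate the ends of fatty acids and eicosanoids, and other families make or clear bile acids, steroid hormones, vitamin D and retinoic acid. UGTs attach glucuronic acid from a UDP-sugar to phenols, bilirubin, steroids and drugs so that they can be excreted. Liver and gut carry most of both families, while airway epithelium and lung tumours carry a smaller set.

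The libraries held 14280081 to 16305356 counted fragments, and a level of 3 counts, equal to 0.166 to 0.227 CPM, the count scaled to library size, was taken as the floor of detection. These limits cover counting error only. USP12 itself had 201 and 621 counts in the controls against 24235 and 32274 with USP12, a log2 fold change of 6.32 with a standard error (SE) of 0.57. The epithelial markers EPCAM, KRT8, KRT18, KRT19 and CDH1 were above the floor, and CDKN2A, which A549 cells have lost, was at 0 in the 4 libraries. Of the lung lineage markers, SFTPB was at 0 and SFTPC at 0 or 1 count. NAPSA had 26 and 7 counts in the controls and 14 and 15 in the USP12 libraries, and NKX2-1 had 5 and 3 against 2 and 0. The controls differed from each other more than the USP12 libraries did. Over all tested genes the median absolute log2 difference was 0.88 between the controls and 0.24 between the USP12 libraries, and over the tested P450 and UGT genes it was 1.17 and 0.47. The column heading of control replicate 1 also has another prefix than those of the other 3 libraries, and what it marks is not given in the sources used here.

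Part of both families was detected in A549 cells, and a smaller part was high enough to be tested. Of the 74 genes, 21 had no count in any library, 44 exceeded 3 counts in at least 1 library and 21 passed the filter on low counts and were tested. Steroid hormone synthesis was the role with no gene above the floor. The 6 steroid hormone P450s (CYP11A1, CYP11B1, CYP11B2, CYP17A1, CYP19A1 and CYP21A2) were at 0 in the 4 libraries, which allows up to 0.227 CPM. CYP7A1, the rate-limiting enzyme of bile acid synthesis, and CYP8B1, which acts later on the same route, were also at 0. CYP2B6, CYP2E1 and CYP1A1, enzymes of drug and pollutant metabolism, stayed below the filter with highest counts of 30, 11 and 8.

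**Figure D1:**
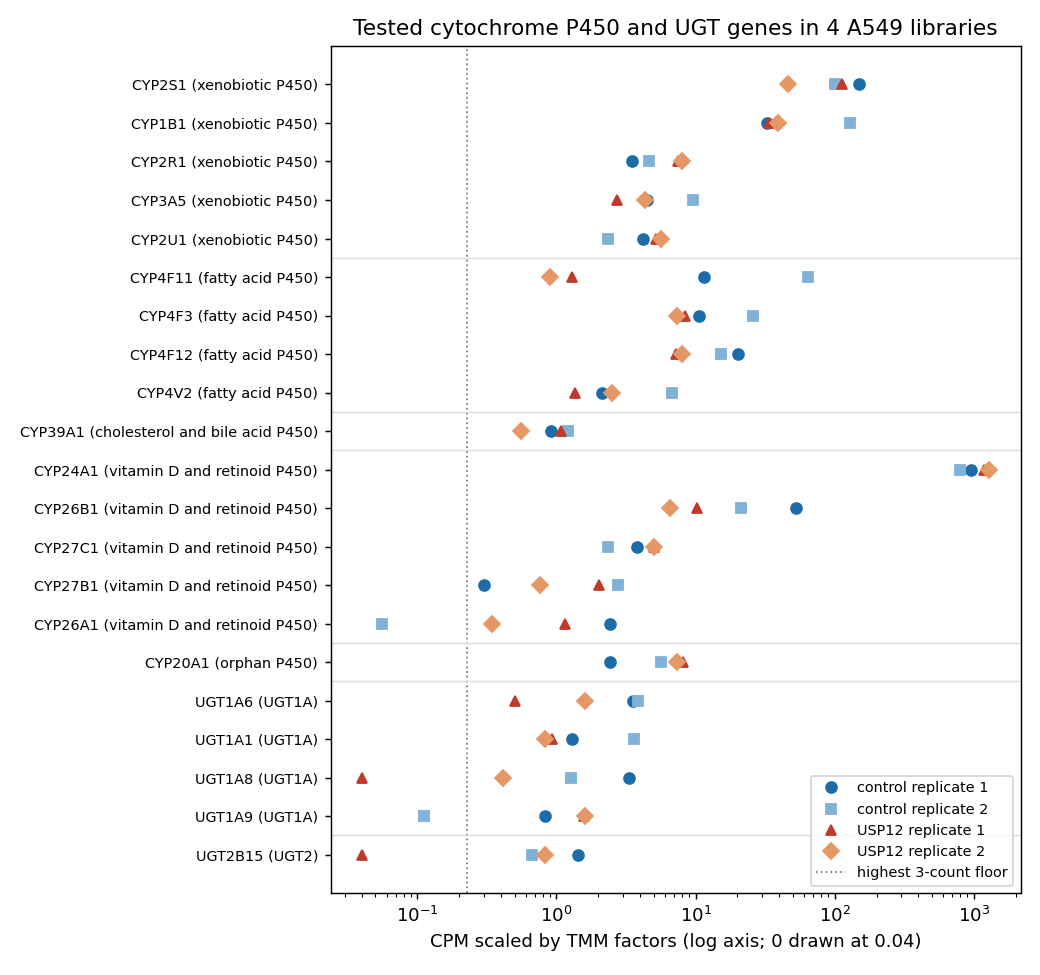
Levels of the 21 tested genes in each of the 4 libraries, as CPM scaled by TMM factors on a log axis, grouped by role; each point is 1 library and the dotted line is the highest 3-count floor. CYP24A1 lies at 792 to 1289 CPM, above all others, and CYP4F11 shows the widest gap between the control and USP12 points.

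CYP24A1 led the families by a wide margin. It encodes the enzyme that inactivates the vitamin D hormone. Its level per kilobase of transcript was 264 CPM per kilobase on average, rank 129 of the 15222 tested genes. The next levels were 37.6 CPM per kilobase for CYP2S1, 9.73 for CYP1B1, 5.21 for CYP4F11, 4.70 for CYP26B1 and 2.48 for CYP4F12. These averages run over the 4 libraries and do not separate CYP4F11 from CYP26B1, whose single libraries overlap.

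With USP12, more of the tested genes had lower than higher point estimates, but no call passed correction for multiple testing. The log2 fold change (USP12 minus control) was below 0 for 15 genes and above 0 for 6, with a median of -0.99 beside a median of -0.06 over all tested genes. By the criterion of the study, an unadjusted p of at most 0.05 and a log2 fold change of at least 1 in size, 4 of the 21 genes were lower (CYP4F11, UGT1A8, CYP26B1 and CYP4F12), against a background of 4.41% of all tested genes, and 0 were higher, against 2.92%. By the same edgeR quasi-likelihood test with Benjamini-Hochberg adjustment over all genes, 0 genes of the series had an adjusted p under 0.05, while 1155 genes, or 7.59%, had an unadjusted p under 0.05. The smallest adjusted p (edgeR, quasi-likelihood) was 0.0975 over all genes and 0.221 among the P450 and UGT genes. The value of 0.0975 was that of USP12, so even the overexpressed gene did not pass in this fit. Of the 4 genes that met the criterion, UGT1A8 had passed the filter on low counts through the controls alone. Both USP12 libraries lay below both controls for 8 of the 21 genes (17.0% of all tested genes) and above both for 6 (19.5%).

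**Figure D2:**
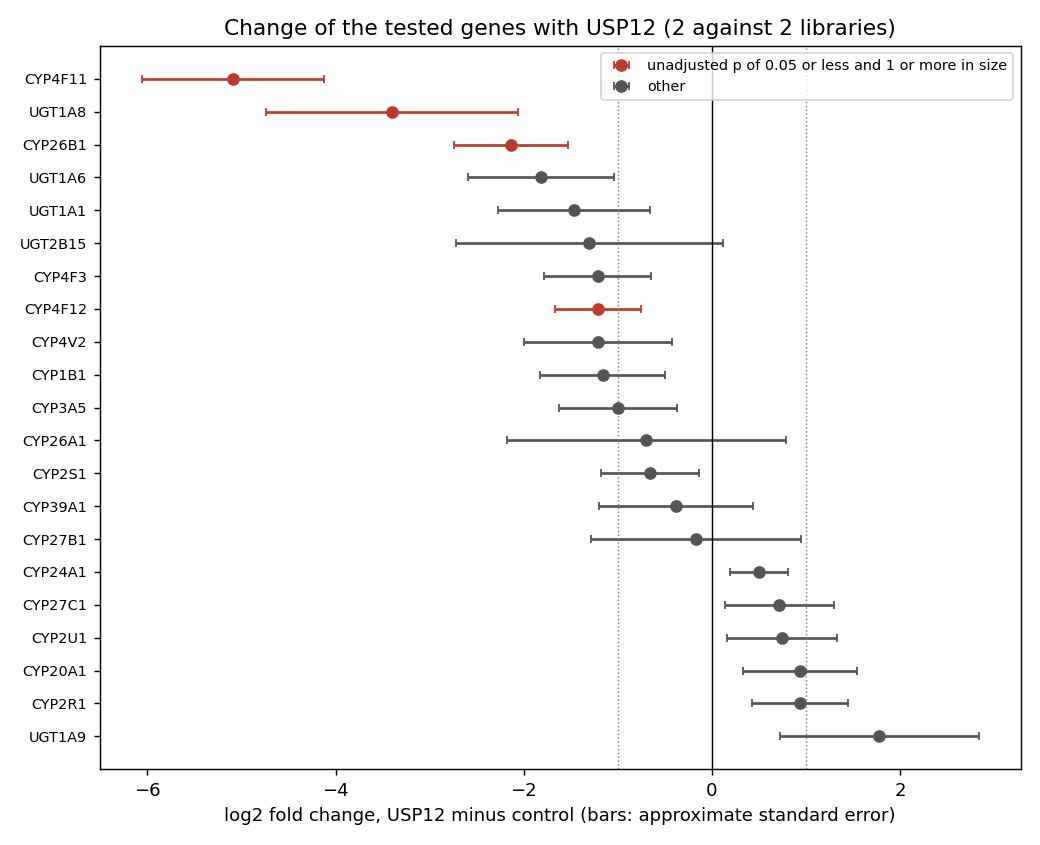
Log2 fold change (USP12 minus control, 2 against 2 libraries) of the 21 tested genes with approximate standard errors as bars. Red points mark the 4 genes that met the criterion (CYP4F11, UGT1A8, CYP26B1 and CYP4F12), all to the left of the dotted line at -1, and none of the 6 genes above 0 met it.

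The CYP4 group of fatty acid P450s held the gene with the greatest difference. Of the 12 CYP4 genes, 4 were tested, all 4 had negative log2 fold changes (median -1.21) and CYP4F11 and CYP4F12 met the criterion. CYP2U1, a fatty acid hydroxylase counted with the CYP2 family, went the other way at a log2 fold change of 0.75, short of the criterion. CYP4F11, which hydroxylates long-chain fatty acids and vitamin K at the end of the chain, had 153 and 1151 counts in the controls and 18 and 13 in the USP12 libraries. In scaled units these were 11.6, 63.8, 1.30 and 0.900 CPM, so that each USP12 library was below each control although the controls themselves were far apart. The log2 fold change was -5.09 (SE 0.97), or 34.1-fold lower, with an unadjusted p of 0.00177 and an adjusted p of 0.221 (edgeR, quasi-likelihood). Against control replicate 1 alone the log2 fold change was -3.36 and against control replicate 2 alone it was -5.85. CYP4F11 met the criterion in every alternative that kept all libraries, its size varying with the control used. A fit against 1 control takes its spread from the USP12 libraries alone, so a call there ignores the spread between the controls.

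CYP4F11 lies on the minus strand at chr19:15912367-15934867 (GRCh38, GENCODE 44), in a cluster with CYP4F3 (chr19:15640897-15662825, plus strand), CYP4F12 (chr19:15673018-15697174, plus strand) and CYP4F2 (chr19:15878023-15898077, minus strand). CYP4F12, which oxidises arachidonic acid derivatives and some antihistamines, had 266 and 274 counts in the controls and 100 and 116 in the USP12 libraries. The groups did not overlap (20.1 and 15.2 against 7.20 and 8.03 CPM), and the log2 fold change was -1.21 (SE 0.46, unadjusted p 0.0373, adjusted p 0.582, edgeR). Against control replicate 2 alone it was -0.99, and without USP12 replicate 1 or 2 the unadjusted p was 0.341 or 0.282, all short of the criterion. CYP4F3, the leukotriene B4 hydroxylase, had 10.7 and 25.9 against 8.35 and 7.41 CPM. Its groups did not overlap either, but the log2 fold change of -1.21 (SE 0.57, unadjusted p 0.0770, edgeR) missed the criterion and was -0.41 against control replicate 1 alone. Against control replicate 2 alone it was -1.71. CYP4V2, a fatty acid hydroxylase of the retina and other tissues, had 28 and 123 counts against 19 and 36, and its groups overlapped. Its log2 fold change was -0.10 against control replicate 1 alone and -1.81 against control replicate 2 alone. Reads of CYP4V2 may be shared with ENSG00000290316, which overlaps it on the same strand. CYP4F2, with 0 and 19 counts in the controls and 1 in each USP12 library, and CYP4X1, with 12, 0, 0 and 0, were not tested.

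The coding sequence of CYP4F11, built from the annotation, was 88.2% identical to that of CYP4F2, 86.6% to CYP4F12 and 85.2% to CYP4F3, and the longest stretch without a difference was 57, 49 and 64 bases in turn. CYP4F2 and CYP4F3 were closest, at 91.0% with a stretch of 112 bases. Only uniquely mapped fragments were counted, and how many fragments of the CYP4F genes were left out for mapping to more than 1 of them was not measured here.

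The P450s of vitamin D and retinoic acid pointed in both directions. Of 6 genes, 5 were tested, with a median log2 fold change of -0.17, 3 of them below 0 and 2 above. CYP2R1, which also acts on vitamin D, was counted with the CYP2 family instead and had a log2 fold change of 0.94. The split and the median given here, and the sign of that median, depend on this grouping. CYP26B1, which clears retinoic acid, had 700 and 381 counts in the controls and 143 and 95 in the USP12 libraries, or 53.0 and 21.1 against 10.3 and 6.58 CPM. The groups did not overlap, and the log2 fold change was -2.13 (SE 0.61), or 4.38-fold lower, with an unadjusted p of 0.0122 and an adjusted p of 0.394 (edgeR). It was -2.62 against control replicate 1 alone and -1.32 against control replicate 2 alone, and without USP12 replicate 2 it was -1.83 with an unadjusted p of 0.128, short of the criterion. CYP26B1 lies at chr2:72129238-72147862 on the minus strand and overlaps an antisense gene, ENSG00000289615, from which its reads can be told apart only if strand was used in the counting, which is not stated. CYP26A1, the other retinoic acid hydroxylase detected, had 32 and 1 counts against 16 and 5. These overlapped, and its sign depended on the control. Reads of CYP26A1 may be shared with ENSG00000285846, which overlaps it on the same strand.

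CYP24A1 (chr20:54153446-54173986, minus strand) had 951 and 792 CPM in the controls and 1179 and 1289 CPM in the USP12 libraries. Both USP12 libraries were above both controls, yet the log2 fold change of 0.50 (SE 0.30, unadjusted p 0.149, adjusted p 0.850, edgeR) met neither part of the criterion. It was 0.40 against control replicate 1 alone and 0.64 against control replicate 2 alone. CYP27B1, which makes the hormone that CYP24A1 inactivates, had 4 and 50 counts in the controls and 28 and 11 in the USP12 libraries. Here the spread between the controls covered both USP12 values. Reads of CYP27B1 may also be shared with METTL1, which overlaps it on the same strand. CYP27C1, a retinol desaturase, was at 50 and 42 counts against 70 and 72, higher in both USP12 libraries but short of the criterion at a log2 fold change of 0.72. Against control replicates 1 and 2 alone it was 0.43 and 1.11.

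Among the CYP1, CYP2 and CYP3 families, 5 of 24 genes were tested and 0 met the criterion (median log2 fold change -0.66). CYP2S1, an airway P450 (chr19:41193210-41207539, plus strand), had 1967 and 1825 counts in the controls and 1555 and 670 in the USP12 libraries. After scaling (149 and 101 against 112 and 46.4 CPM) the groups overlapped, at a log2 fold change of -0.66 (SE 0.52). It was -1.41 without USP12 replicate 1 and -0.15 without USP12 replicate 2, and -0.88 and -0.35 against control replicates 1 and 2 alone. CYP1B1, which oxidises oestrogens and polycyclic hydrocarbons, had 429 and 2338 counts against 466 and 562. Only control replicate 2 stood apart, at 130 CPM beside 32.5, 33.5 and 38.9 CPM. The log2 fold change of -1.16 (SE 0.66, unadjusted p 0.130, edgeR) turned to 0.19 against control replicate 1 alone. It was -1.84 against control replicate 2 alone. Reads of CYP1B1 may also be shared with the genes that overlap it, RMDN2-AS1 on the same strand and CYP1B1-AS1 and RMDN2 on the other.

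The remaining tested genes of these families pointed in both directions. CYP3A5, the main CYP3A enzyme of lung, had 59 and 172 counts against 38 and 62, and its groups did not overlap in CPM. CYP2R1, which carries out the first activation step of vitamin D, had 46 and 83 counts in the controls and 104 and 116 in the USP12 libraries (log2 fold change 0.94, SE 0.51, unadjusted p 0.116, edgeR). CYP2U1, a fatty acid hydroxylase, had 55 and 42 against 72 and 82. The orphan P450 CYP20A1, which RN7SL670P overlaps on the same strand, had 32 and 101 counts against 112 and 106. CYP2R1, CYP2U1 and CYP20A1 were each higher in both USP12 libraries than in both controls, and none met the criterion. Against control replicates 1 and 2 alone the log2 fold change was 1.18 and 0.76 for CYP2R1 and 1.69 and 0.46 for CYP20A1. For CYP2U1 it was 0.41 and 1.22, and for CYP3A5 it was -0.32 and -1.43. The 1 tested gene of the cholesterol and bile acid group, CYP39A1, which hydroxylates an oxysterol, had 12 and 22 counts against 15 and 8, with overlapping groups.

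**Figure D3:**
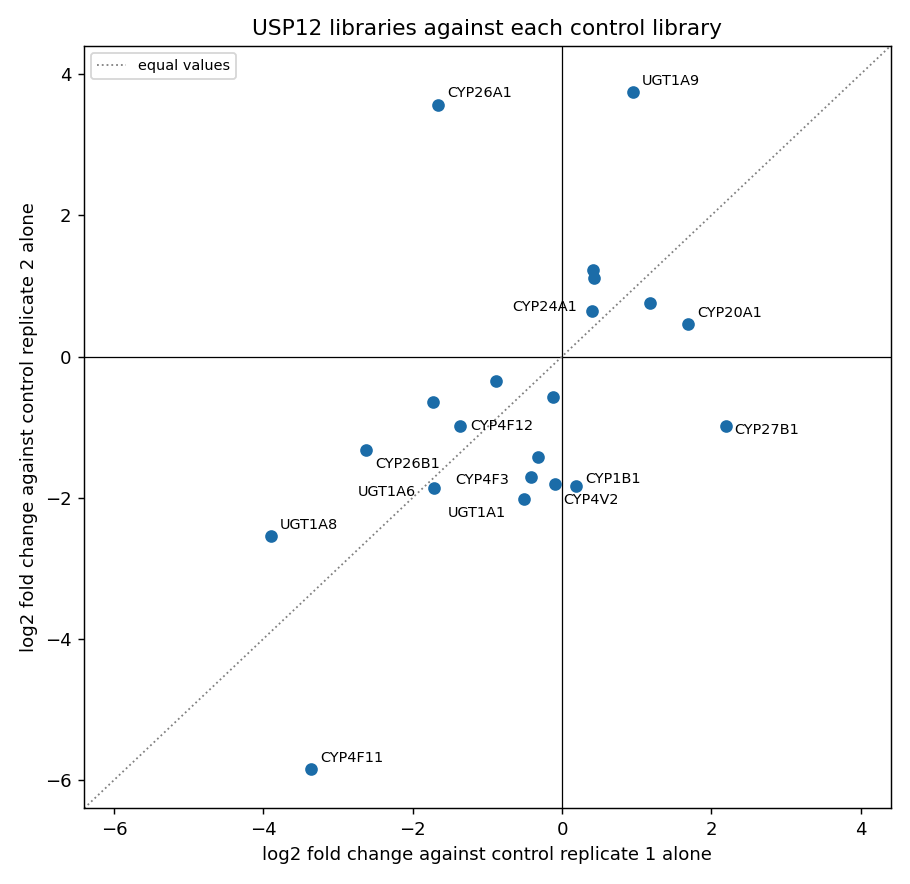
Log2 fold change of the 21 tested genes when the 2 USP12 libraries are set against control replicate 1 alone (horizontal axis) or control replicate 2 alone (vertical axis); each point is 1 gene and the dotted line marks equal values. CYP4F11 (-3.36 and -5.85) and CYP26B1 (-2.62 and -1.32) are below 0 on both axes, while CYP1B1 (0.19 and -1.84), CYP27B1 (2.19 and -0.99) and CYP26A1 (-1.66 and 3.57) change sign.

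The UGT1A genes have a structure that bears on how far their counts can be read. Each has its own first exon, which sets the substrate, followed by exons that are common to all of them. In the annotation, 4 exons were shared by 9 of the 9 UGT1A genes, and 3 of these were coding over their whole length in all. The following shared coding exon of 132 bases, read from GRCh38 at chr2:233767034-233767165 on the plus strand, is shown because a fragment within it cannot be given to any single UGT1A gene.
UGT1A shared exon: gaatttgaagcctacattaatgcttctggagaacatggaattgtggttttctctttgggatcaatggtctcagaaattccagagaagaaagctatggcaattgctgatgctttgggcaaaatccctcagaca

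Of the 9 UGT1A genes, 4 were tested, 3 had negative log2 fold changes (median -1.64) and UGT1A8 met the criterion. It passed the filter on low counts through the controls alone, so it could enter the test only as a gene higher there. UGT1A8, an isoform best known from the gut (chr2:233617633-233773300, plus strand), had 44 and 23 counts in the controls and 0 and 6 in the USP12 libraries. The groups did not overlap, and the log2 fold change was -3.40 (SE 1.34, unadjusted p 0.0433, adjusted p 0.626, edgeR). Without control replicate 1 it was -2.55 and without USP12 replicate 1 it was -2.42, both short of the criterion (unadjusted p 0.106 and 0.201). Without control replicate 2 it was -3.90, and without USP12 replicate 2, which leaves the library at 0, it was -8.10. UGT1A9, which conjugates phenols and drugs, had 11 and 2 counts in the controls and 22 and 23 in the USP12 libraries, the opposite direction (log2 fold change 1.78, SE 1.06, unadjusted p 0.142, edgeR). It was 0.95 against control replicate 1 alone and 3.75 against control replicate 2 alone. The coding sequences of UGT1A8 and UGT1A9 were 96.4% identical, with a stretch of 744 bases free of differences. A long stretch of this kind is not particular to them, since UGT1A1 and UGT1A8, 75.3% identical, had 736 bases. UGT1A3, UGT1A4 and UGT1A5 were also alike, at 96.3% to 96.8%, and no separate sum was made of them.

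Because UGT1A7, UGT1A8, UGT1A9 and UGT1A10 were 95.7% to 96.8% identical, these 4 genes were also summed, a choice made after their values had been seen. The sum was 63 and 28 counts in the controls and 38 and 32 in the USP12 libraries, with overlapping groups and a log2 fold change of -0.34 (SE 0.75, unadjusted p 0.661, edgeR). The lower value of UGT1A8 was thus not carried over to the sum. All 9 UGT1A rows together had 148 and 192 counts against 65 and 79, or 11.2 and 10.6 against 4.68 and 5.47 CPM. That sum did not overlap between the groups and had a log2 fold change of -1.10 (SE 0.48, unadjusted p 0.0593, adjusted p 0.689, edgeR), which missed the criterion.

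**Figure D4:**
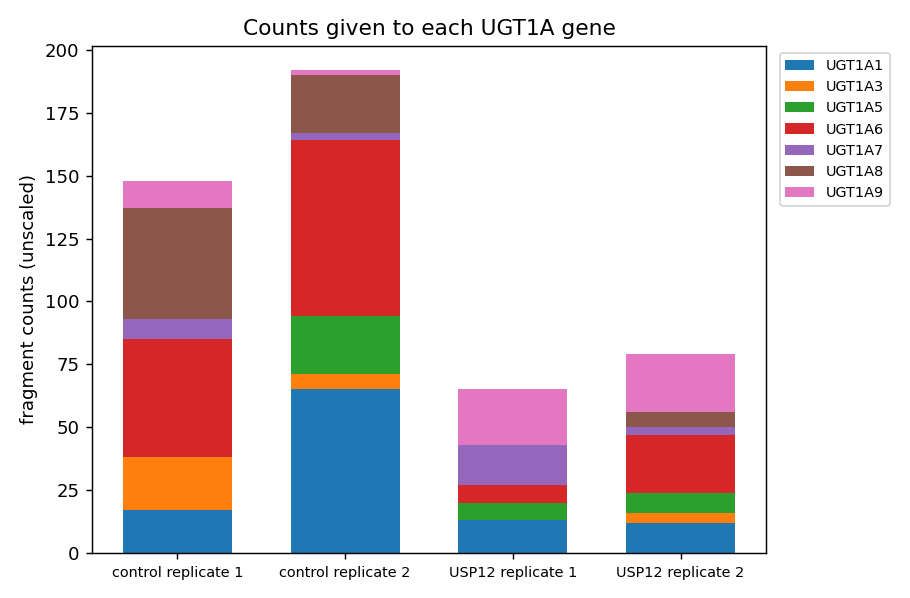
Unscaled fragment counts given to each UGT1A gene, stacked, in the 4 libraries; UGT1A4 and UGT1A10 had no count. The stacks reach 148 and 192 counts in the controls and 65 and 79 in the USP12 libraries, and UGT1A8 takes 44, 23, 0 and 6 of them while UGT1A9 takes 11, 2, 22 and 23.

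UGT1A6, a phenol transferase, had 47 and 70 counts against 7 and 23 and missed the criterion at a log2 fold change of -1.82 (SE 0.78, unadjusted p 0.0570, edgeR). UGT1A1, the bilirubin transferase, had 17 and 65 counts against 13 and 12 (log2 fold change -1.47, SE 0.81). It was -0.51 against control replicate 1 alone and -2.02 against control replicate 2 alone. UGT1A6 was at -1.72 and -1.87 against control replicates 1 and 2 alone. Its value ran from -1.20 without USP12 replicate 1 to -2.86 without USP12 replicate 2. For both genes, each USP12 library was below each control. Of the untested UGT1A genes, UGT1A3 had 21 and 6 counts against 0 and 4, UGT1A5 had 0 and 23 against 7 and 8, and UGT1A7 had 8 and 3 against 16 and 3. In the UGT2 family 1 of 10 genes was tested, UGT2B15, an androgen transferase, with 19 and 12 counts against 0 and 12 and overlapping groups.

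Upstream sequence was compared for the genes that met the criterion and have an entry in the RefSeq promoter table (GRCh38.p14): CYP4F11, UGT1A8 and CYP26B1. CYP4F12 has none there. The window is the 250 bases before the transcript start, given 5′ to 3′ on the strand of the gene, at chr19:15934868-15935117 (minus), chr2:233617383-233617632 (plus) and chr2:72147863-72148112 (minus) in turn. Capitals mark a match to the antioxidant response element core TGACNNNGC in CYP4F11 (on the opposite strand), to the xenobiotic response element core GCGTG in UGT1A8 (on the opposite strand) and to TATAAA in CYP26B1.
CYP4F11: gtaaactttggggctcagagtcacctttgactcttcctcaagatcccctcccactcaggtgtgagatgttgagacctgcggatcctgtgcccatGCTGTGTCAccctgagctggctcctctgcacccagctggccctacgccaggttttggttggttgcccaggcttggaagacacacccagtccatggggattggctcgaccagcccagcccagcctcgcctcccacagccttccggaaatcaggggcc
UGT1A8: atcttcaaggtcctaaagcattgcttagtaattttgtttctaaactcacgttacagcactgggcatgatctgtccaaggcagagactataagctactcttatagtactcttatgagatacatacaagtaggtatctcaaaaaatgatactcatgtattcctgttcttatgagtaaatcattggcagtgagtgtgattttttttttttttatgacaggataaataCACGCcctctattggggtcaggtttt
CYP26B1: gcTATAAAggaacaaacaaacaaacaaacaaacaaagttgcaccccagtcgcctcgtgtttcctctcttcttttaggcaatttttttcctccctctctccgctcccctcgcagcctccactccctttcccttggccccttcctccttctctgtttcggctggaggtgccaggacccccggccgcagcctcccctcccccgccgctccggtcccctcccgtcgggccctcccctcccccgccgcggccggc

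The match in CYP4F11 spans positions -156 to -148 from the start and that in UGT1A8 positions -26 to -22. TATAAA in CYP26B1 spans positions -248 to -243, at the far end of the window from the start. Across the 27305 promoters of the table, 11.03% held the antioxidant core and 31.91% the xenobiotic core on either strand, and 7.17% held TATAAA on the strand of the gene. Of the 17 tested genes with an entry, 2 held the antioxidant core (CYP4F11 and CYP4V2), 4 the xenobiotic core (CYP20A1, UGT1A6, UGT1A8 and UGT1A9) and 1 TATAAA. The AP-1 motif TGAGTCA (4.16% of all promoters) and the DR3 and DR5 nuclear receptor elements (0.07% each) were in 0 of the 17, and the NF-kB element (9.57%) was in 3, CYP20A1, CYP2R1 and CYP2U1. The 3 genes printed share none of these motifs, and a match describes letters in the window only.

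Few of the partners that both families need met the criterion. Over all tested genes, 4.41% were lower and 2.92% higher by it. Of 12 tested genes listed with the electron donors, 0 met the criterion for lower and 1 for higher. The gene was PGRMC2, a haem-binding membrane protein rather than an electron donor (1052 and 951 counts against 1898 and 1942, log2 fold change 1.04, SE 0.38, unadjusted p 0.0344, adjusted p 0.572, edgeR). Against control replicate 1 alone it was 0.80, and without USP12 replicate 1 or 2 its unadjusted p was 0.273 or 0.261, all short of the criterion. POR, the reductase of microsomal P450s, had a log2 fold change of 0.15 (SE 0.45) with overlapping groups. Of 8 haem synthesis genes, 0 met the criterion in either direction (median log2 fold change 0.09). The same held for 6 genes listed under UDP-glucuronic acid supply (median -0.17), which include GUSB, a glucuronidase. UGDH, which makes the sugar donor of UGTs, had 1421 and 7693 counts against 3257 and 6055, within the spread of the controls.

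Of the transcription factors known to act on these genes, a retinoic acid receptor stood apart. Of 15 tested receptors and regulators, 1 met the criterion, RARB, a retinoic acid receptor and itself a known target of retinoic acid, higher with 30 and 53 counts against 175 and 197 (log2 fold change 2.33, SE 0.51, unadjusted p 0.00352, adjusted p 0.279, edgeR). Without USP12 replicate 2 its unadjusted p was 0.0531. The other tested retinoic acid receptors, RARA (log2 fold change -0.29, SE 0.44) and RARG (-0.53, SE 0.59), had overlapping groups. Whether retinoic acid signalling differed between the groups was not tested. AHR, the receptor behind CYP1 and several UGT1A genes, had 630 and 2438 counts against 800 and 895. Control replicate 2 stood apart there as it did for CYP1B1. The median log2 fold change of the 15 was -0.29, and the share of all tested genes that were higher by the criterion was 2.92%. Known AHR targets outside both families (5 tested, median 0.00) and known NRF2 targets (20 rows for 19 symbols, AKR1C3 standing in 2 rows, median 0.11) had 0 rows that met the criterion in either direction.

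The remaining 4 lists cover retinoid handling, other drug metabolism and relatives of both families. Their counts stand beside 4.41% of all tested genes lower and 2.92% higher by the criterion. Of 7 tested retinoid handling genes 1 met the criterion, RDH10, which oxidises retinol on the way to retinoic acid, lower with 1525 and 4757 counts against 956 and 1093 (log2 fold change -1.39, SE 0.48, unadjusted p 0.0273, adjusted p 0.527, edgeR). Against control replicate 1 alone it was -0.65, and without USP12 replicate 1 or 2 the unadjusted p was 0.189 or 0.139, all short of the criterion. Of 6 tested carboxylesterases, flavin monooxygenases and epoxide hydrolases, 4 met the criterion and all 4 were lower (CES1, CES3, EPHX2 and FMO5, list median -1.52). Without USP12 replicate 1, or without replicate 2, CES3, EPHX2 and FMO5 no longer met it. CES1, a liver and lung esterase, was the farthest apart, with 1210 and 149 counts in the controls and 0 and 7 in the USP12 libraries (log2 fold change -7.62, SE 1.67, unadjusted p 0.00366, adjusted p 0.280, edgeR). Its size ran from -5.02 without control replicate 1 to -12.52 without USP12 replicate 2, the library that holds the 7 counts. CES1 passed the filter on low counts through the controls alone. Among 20 tested conjugating enzymes of other families (median -0.32), 1 met the criterion, SULT1C2, a sulfotransferase, higher with 0 and 2 counts against 48 and 96. SULT1C2 passed the filter on low counts through the USP12 libraries alone. Of 6 tested P450 and UGT relatives outside the symbol rule, CYP51A1 among them, 0 met it (median -0.04).

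Markers of other cell types were low in the 4 libraries. The endothelial list, in which 2 of 3 genes were above the floor and VWF was not, summed to 8.59 to 15.4 CPM in the controls and 0.432 to 1.32 CPM in the USP12 libraries, lower with USP12 as were CYP4F11 and CYP26B1. The hepatocyte list, with 3 of 6 genes above the floor and ALB at 0 to 2 counts, summed to 15.3 to 16.6 CPM against 6.91 to 10.8 CPM. HNF4A made up most of it, at 10.8 and 13.9 CPM in the controls and 6.19 and 10 CPM in the USP12 libraries. AHSG had 57 and 21 counts against 0 and 2, while the groups overlapped for TTR. The fibroblast sum, with 3 of 5 genes above the floor and DCN at 0, was higher in both USP12 libraries, at 16.2 to 20.2 CPM against 2.93 to 14.9 CPM. Most of it was COL1A1, at 13 and 2.6 CPM in the controls and 18.9 and 14.6 CPM in the USP12 libraries. PDGFRB had 0 counts in the controls and 6 and 11 in the USP12 libraries, while the groups overlapped for LUM. The epithelial sum was 9640 and 5070 CPM in the controls and 4280 and 3980 CPM in the USP12 libraries. EPCAM, KRT8, KRT18 and KRT19 were each lower in both USP12 libraries than in both controls, as were CYP4F11 and CYP26B1, while the groups overlapped for CDH1. The part of any of these transcripts in the P450 and UGT values was not tested.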

How the data were processed

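The authors deposited raw counts of uniquely mapped fragments for 50868 genes in 4 stranded mRNA libraries. They trimmed reads and removed ribosomal RNA with Seqtk, mapped to GRCh38 with HISAT2 2.0.4 and counted with StringTie 1.3.0. Which annotation release was counted, and whether by strand, is not given in the sources used here. From these counts, edgeR 4.0.16 in R 4.3.3 (TMM, filterByExpr, quasi-likelihood test, legacy setting, no block, Benjamini-Hochberg adjustment) tested 15222 genes. CPM were scaled by TMM factors, log2 CPM used a prior count of 2, and SE, the fold change over the square root of F, is approximate. Positions and exons came from GENCODE 44 and promoters from RefSeq, with the first start used where several are listed. Genes named with full statistics were those that met the criterion and the 6 highest per kilobase. The genes, roles and lists were chosen with earlier results of these data known. Alternatives were other size factors, filters and tests (DESeq2 1.42.0, exact test), a replicate block, each library left out and summed UGT1A rows. 1 marker list is not reported here.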

Additional observations from a re-analysis of the deposited data

How the results depend on the processing

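The values below are those that moved most, and the cause was not tested. The other tests, DESeq2's size factors, the block and the filter of 10 counts in every library kept 3 to 5 P450 and UGT genes lower by the criterion and 0 higher, with medians of -1.08 to -0.85, and 521 to 827 of all genes lower and 325 to 575 higher. CYP4F3 joined under DESeq2's Wald test, and UGT1A6 under the exact test and without the legacy setting. Without the filter on low counts, 8 P450 and UGT genes were lower by the criterion (CYP4F12 was not among them), as were 1173 of all genes, with 688 higher. The median was then -0.48, and 2 genes (CYP4F11 and CYP26B1) had an adjusted p under 0.05. Under DESeq2's Wald test the same 2 genes passed, and under edgeR's exact test 1 did (CYP4F11). With the replicate number as a block, 4 genes were lower by the criterion, CYP4F12 leaving at an unadjusted p of 0.0624 and UGT1A6 joining (it changed no other call among the P450 and UGT genes), and 1 (CYP4F11) had an adjusted p under 0.05. The labels say nothing of what the replicate numbers share, and the deviations of same-numbered libraries from their group means had a correlation of 0.152. The prior degrees of freedom were 4.15 in the reported fit and infinite with the block, without the filter and without either USP12 library, so those fits used no spread of the single gene.

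Leaving out each library in turn gave 2 to 10 genes lower and 0 to 3 higher by the criterion, and 300 to 2134 lower and 159 to 2495 higher among all genes. Adjusted p under 0.05 was then reached by 0 to 4 genes that were lower and 0 to 2 that were higher, and the median ranged from -1.22 to -0.22. Without control replicate 1, CYP4F12 and UGT1A8 no longer met the criterion and 10 genes were lower, and without control replicate 2, 5 were lower. Without USP12 replicate 1, CYP4F12 and UGT1A8 were lost, and without USP12 replicate 2, CYP4F12 and CYP26B1. In these fits 1 group had 1 library, so the spread came from the other group alone. Their counts of calls cannot be set beside those of the reported fit. At least 10 counts in every library left UGT1A8 untested. Signs turned for some genes that had not met the criterion. With the block, CYP26A1 was at 0.18 and CYP27B1 at 0.26. Over the fits that left out a library, the log2 fold change of CYP1B1 ran from -1.84 to 0.19, of CYP26A1 from -1.78 to 3.57, of CYP39A1 from -0.92 to 0.01, of CYP27B1 from -1.01 to 2.19, of AHR from -1.17 to 0.36, of UGDH from -0.38 to 1.63 and of POR from -0.27 to 0.79. A gene at or under 3 counts in a library was not separable from 0.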
